A study of Mus musculus with 7 samples.

Results

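The CXCR3 and CXCR6 chemokine axes are described here by 7 genes chosen by name, as T cell attracting chemokines and receptors, out of the 22629 rows of a table of gene counts from 7 mouse tumors. The members are the CXCR3 ligands Cxcl9, Cxcl10 and Cxcl11 with their receptor gene Cxcr3, the CXCR6 ligand Cxcl16 with its receptor gene Cxcr6, and the lymphotactin gene Xcl1. All 7 were found by their Ensembl identifiers, and all 7 had enough counts to be among the 17489 genes tested. RNA-seq was done on subcutaneous (s/c) tumors of the 1242 PDA cell line, a pancreatic ductal adenocarcinoma line from a mouse in which Pdx1-Cre switches on cancer alleles, LSL-Trp53 R172H/+ among them, grown for 2 weeks in C57BL/6 mice bought at 6 weeks of age and housed for 2 weeks before use. There were 3 tumors of cells carrying Cas9 with a scrambled guide (sgScramble tumors 1, 4 and 5) and 4 tumors of sgScramble cells that also express intracytoplasmic ovalbumin (icOVA tumors 2, 15, 16 and 18). The ovalbumin vector is doxycycline (Dox)-inducible, Dox food was given from the day of inoculation, and the vector-bearing cells were sorted and cloned from single cells, so that the icOVA tumors may represent 1 clone of the line. For ovalbumin-inducible lines the paper gives a larger s/c inoculum than its usual one. Whether the sgScramble cells of this series carried the ovalbumin vector, and whether they were cloned, is not given in the sources used here. Nor is it given whether their mice received Dox, or how many of these cells were inoculated.

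CXCL9, CXCL10 and CXCL11 are small secreted proteins that interferon-γ induces in macrophages, endothelium, fibroblasts and cancer cells, and they draw activated T cells and NK cells through the receptor CXCR3. CXCL16 is made as a membrane protein, chiefly by myeloid cells and endothelium, can be shed by the proteases ADAM10 and ADAM17, and binds CXCR6 on effector and tissue-resident T cells. XCL1 is released by activated CD8+ T cells and NK cells, and its receptor XCR1 marks cross-presenting dendritic cells. C57BL/6 mice are known to carry a Cxcl11 allele that gives no functional protein, and the GENCODE M21 annotation lists Cxcl11 as a polymorphic pseudogene, so Cxcl11 is followed here as a transcript.

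Both receptor genes passed the test and none of the ligand genes did. Cxcr3 was 3.11-fold and Cxcr6 2.63-fold higher in icOVA tumors, whereas the 3 CXCR3 ligand genes were between 1.35-fold and 1.40-fold higher, Cxcl16 was 1.10-fold higher and Xcl1 1.07-fold higher, none of these 5 passing the test. Of the 7 members 2 were called higher and none lower, beside 3.36% of all tested genes called higher and 2.54% called lower. At an unadjusted p below 0.05, which 13.4% of tested genes reached with a higher level, Cxcl10 joined Cxcr3 and Cxcr6. All fold changes are from edgeR's quasi-likelihood fit over the whole table with library sizes scaled by TMM (trimmed mean of M values), p values were adjusted over the 17489 genes by the Benjamini-Hochberg method, and an adjusted p below 0.05 was the threshold for a call. Expression is given as CPM, counts relative to the size of the TMM-scaled library, or as RPKM, the same value per kilobase of exon, where genes are set beside each other.

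**Figure D1:**
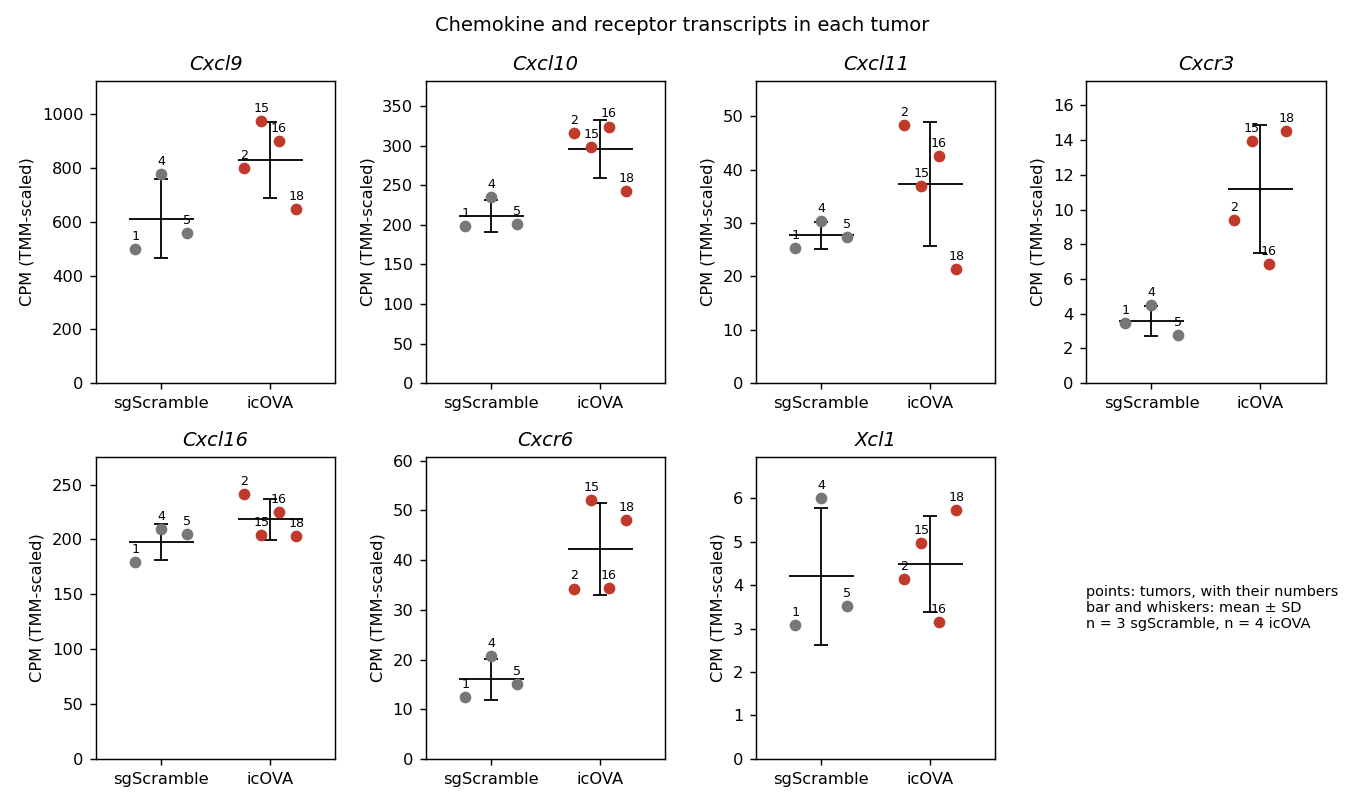
Each panel plots the CPM of 1 gene (vertical axis, linear from 0) in the sgScramble and icOVA tumors, with a point and its number for each tumor and a bar with whiskers for the mean ± SD (n = 3 and n = 4). All icOVA tumors lie above all sgScramble tumors for Cxcl10, Cxcr3 and Cxcr6, and icOVA tumor 18 is the lowest of its group for Cxcl9, Cxcl10 and Cxcl11 and the highest for Cxcr3 and Xcl1.

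Total counts ran from 30904855 to 37510591 per tumor. OVA, the transgene, had 85 to 151 counts in the sgScramble tumors and 3413 to 10750 counts in the icOVA tumors, so that no tumor went against its label, and icOVA tumor 18 had the fewest of its group. The source of the OVA counts in the sgScramble tumors was not tested. The epithelial genes Krt19, Krt18, Krt8, Epcam and Cdh1, which mark the cancer cells, summed to 4151 to 4379 CPM in sgScramble tumors and 2694 to 4626 CPM in icOVA tumors, and none of the 5 passed with edgeR or DESeq2. The lowest sum was that of icOVA tumor 18. The calls depended on single tumors, since edgeR called 0 genes of the table when any of sgScramble tumor 1, sgScramble tumor 5 and icOVA tumor 15 was missing, with 3087, 2936 and 3415 of them below an unadjusted p of 0.05. The labels give each tumor as a sample of its own and name no batch.

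Per kilobase of exon, the ligands were the abundant part of both axes. Cxcl9 had 203 ± 48.9 RPKM (SD, n = 3) in sgScramble tumors and 275 ± 46.5 RPKM (SD, n = 4) in icOVA tumors, the highest level of the 7 members in each of the 7 tumors. Cxcl10 followed with 94.0 ± 8.89 and 131 ± 16.3 RPKM, and Cxcl16 with 65.4 ± 5.36 and 72.3 ± 6.16 RPKM. In the sgScramble tumors Cxcr6 (8.31 ± 2.15 RPKM), Xcl1 (8.04 ± 3.03 RPKM) and Cxcl11 (7.30 ± 0.657 RPKM) did not differ beyond their spread, and Cxcr3 was lowest at 2.07 ± 0.498 RPKM. In the icOVA tumors Cxcr6, at 21.8 ± 4.78 RPKM, stood above Cxcl11 (9.84 ± 3.06 RPKM), Xcl1 (8.60 ± 2.11 RPKM) and Cxcr3 (6.46 ± 2.13 RPKM), and these last 3 overlapped in their spread.

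Cxcl9, Cxcl10 and Cxcl11 lie next to each other on chromosome 5 of GRCm38, all on the minus strand. Cxcl9 spans 92321347 to 92328079 and overlaps no other annotated gene. It had 498, 779 and 559 CPM in sgScramble tumors 1, 4 and 5 and 799.9, 973, 899 and 649 CPM in icOVA tumors 2, 15, 16 and 18. The groups overlapped, because sgScramble tumor 4 was above icOVA tumor 18, and the log2 fold change of 0.44 (SE 0.19) did not pass (edgeR adjusted p = 0.184).

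Cxcl10, from 92346638 to 92348889, had 199, 235 and 202 CPM in the sgScramble tumors and 317, 299, 324 and 243 CPM in the icOVA tumors. Here the groups did not overlap, although icOVA tumor 18 was close to sgScramble tumor 4. The log2 fold change was 0.48 (SE 0.12), with an edgeR adjusted p of 0.0533, just outside the threshold. It passed with DESeq2 (adjusted p = 0.00226), where 8.91% of tested genes were called higher against 3.36% with edgeR. In edgeR fits it passed without icOVA tumor 18 (adjusted p = 0.0240, 3.58% of genes called higher) and without sgScramble tumor 4 (adjusted p = 0.0439, 4.82%), and by a smaller margin with upper quartile scaling (adjusted p = 0.0498, 3.27%), with 10 counts required in every tumor (adjusted p = 0.0469, 4.19%) or with libraries scaled to the housekeeping gene Tbp (adjusted p = 0.0470, 3.61%). Of its exonic bases 133 are shared with Art3, a gene on the other strand, which had 105 to 295 counts per tumor against 6303 to 11318 for Cxcl10.

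Cxcl11, from 92359544 to 92365485, had 25.4, 30.3 and 27.4 CPM in the sgScramble tumors and 48.5, 36.9, 42.6 and 21.4 CPM in the icOVA tumors. Tumors 2, 15 and 16 were above every sgScramble tumor, and tumor 18 was below every one of them. With all tumors the log2 fold change was 0.43 (SE 0.25, edgeR adjusted p = 0.301), and without icOVA tumor 18 it was 0.62 and passed (edgeR adjusted p = 0.0355). A pseudogene on the other strand, Gm2673, shares 1582 of the 3794 exonic bases of Cxcl11 in the annotation.

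As shares of counts, not corrected for length, the 3 CXCR3 ligand genes kept the same order in all tumors. Cxcl9 took 68.7% to 74.6% of the summed counts of the 3 genes, Cxcl10 took 22.5% to 27.5% and Cxcl11 2.35% to 4.16%, with icOVA tumor 18 at the lowest Cxcl11 share and icOVA tumor 2 at the highest. The log2 ratio of Cxcl9 to Cxcl10 was 1.51 ± 0.205 (SD, n = 3) in sgScramble tumors and 1.48 ± 0.158 (SD, n = 4) in icOVA tumors, and no difference was detected (difference -0.028, p = 0.800 by an exact permutation test, two-sided, and adjusted p = 0.800 over 9 such ratios).

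Cxcr3, on chromosome X from 101731535 to 101734269, encodes the receptor shared by the 3 ligands. It had 121, 148 and 87 counts in sgScramble tumors 1, 4 and 5 and 303, 517, 239 and 504 counts in icOVA tumors 2, 15, 16 and 18, or 3.48, 4.50 and 2.78 CPM against 9.42, 14.0, 6.85 and 14.5 CPM. Every icOVA tumor was above every sgScramble tumor, with tumors 15 and 18 high and tumor 16 nearest to the sgScramble group. Cxcr3 rose by a log2 fold change of 1.64 (SE 0.31, edgeR adjusted p = 0.0315). Leaving out 1 tumor at a time gave log2 fold changes from 1.49 to 1.84. The call held without sgScramble tumor 4, icOVA tumor 16 (5.88% of genes called higher) or icOVA tumor 18. It was lost when sgScramble tumor 1, sgScramble tumor 5, icOVA tumor 2 or icOVA tumor 15 was missing (edgeR adjusted p from 0.0681 to 0.152), fits that called 0, 0, 0.0347 and 0% of all genes higher.

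Cxcr6, on chromosome 9 from 123806475 to 123811760, encodes the receptor for CXCL16. Its values were 12.5, 20.6 and 14.996 CPM in the sgScramble tumors and 34.3, 52.0, 34.4 and 48.1 CPM in the icOVA tumors. Again no icOVA tumor overlapped the sgScramble tumors, and again tumors 15 and 18 were the higher pair. Cxcr6 rose by a log2 fold change of 1.39 (SE 0.22, edgeR adjusted p = 0.0263). With single tumors left out the log2 fold change ran from 1.25 to 1.62, and the call was lost without the same 4 tumors as for Cxcr3 (edgeR adjusted p from 0.0614 to 0.134). Cxcr6 lies within the span of Fyco1 on the opposite strand and shares no exonic base with it, and Fyco1, at 973 to 1378 counts, had a log2 fold change of 0.03 (edgeR adjusted p = 0.832). Cxcr6, Cxcr3 and Cxcl10 are the 3 members of 7 with every icOVA tumor above every sgScramble tumor, an arrangement found for 11.3% of all tested genes.

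Cxcl16, on chromosome 11 from 70453983 to 70459984, had 179, 209 and 205 CPM in the sgScramble tumors and 242, 204, 225 and 203 CPM in the icOVA tumors. The 2 icOVA tumors with most Cxcr6, 15 and 18, had the least Cxcl16 of their group, at the level of sgScramble tumors 4 and 5. The log2 fold change was 0.14 (SE 0.09, edgeR adjusted p = 0.344) and lay between 0.08 and 0.19 in the fits without 1 tumor. Zmynd15, which runs the other way and shares 552 exonic bases with Cxcl16, had 699 to 1011 counts per tumor against 6222 to 7855 for Cxcl16.

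Xcl1, on chromosome 1 from 164931644 to 164935527, had 3.08, 6.02 and 3.52 CPM in the sgScramble tumors and 4.13, 4.97, 3.15 and 5.72 CPM in the icOVA tumors. The groups overlapped fully, and the sgScramble tumor with most Xcl1, tumor 4, was above every icOVA tumor. Its log2 fold change was 0.10 (SE 0.29, edgeR adjusted p = 0.857), and no difference was detected. The value was lowest without sgScramble tumor 1 (-0.081) and highest without sgScramble tumor 4 (0.45). Xcl1 had 107 to 199 counts per tumor. A non-coding gene on the other strand, Gm20743, shares 98 bases with it. Xcr1, the gene of its receptor, had 1.93, 3.04 and 2.46 CPM against 2.77, 2.97, 2.89 and 2.76 CPM, with a log2 fold change of 0.20 (SE 0.19, edgeR adjusted p = 0.529).

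**Figure D2:**
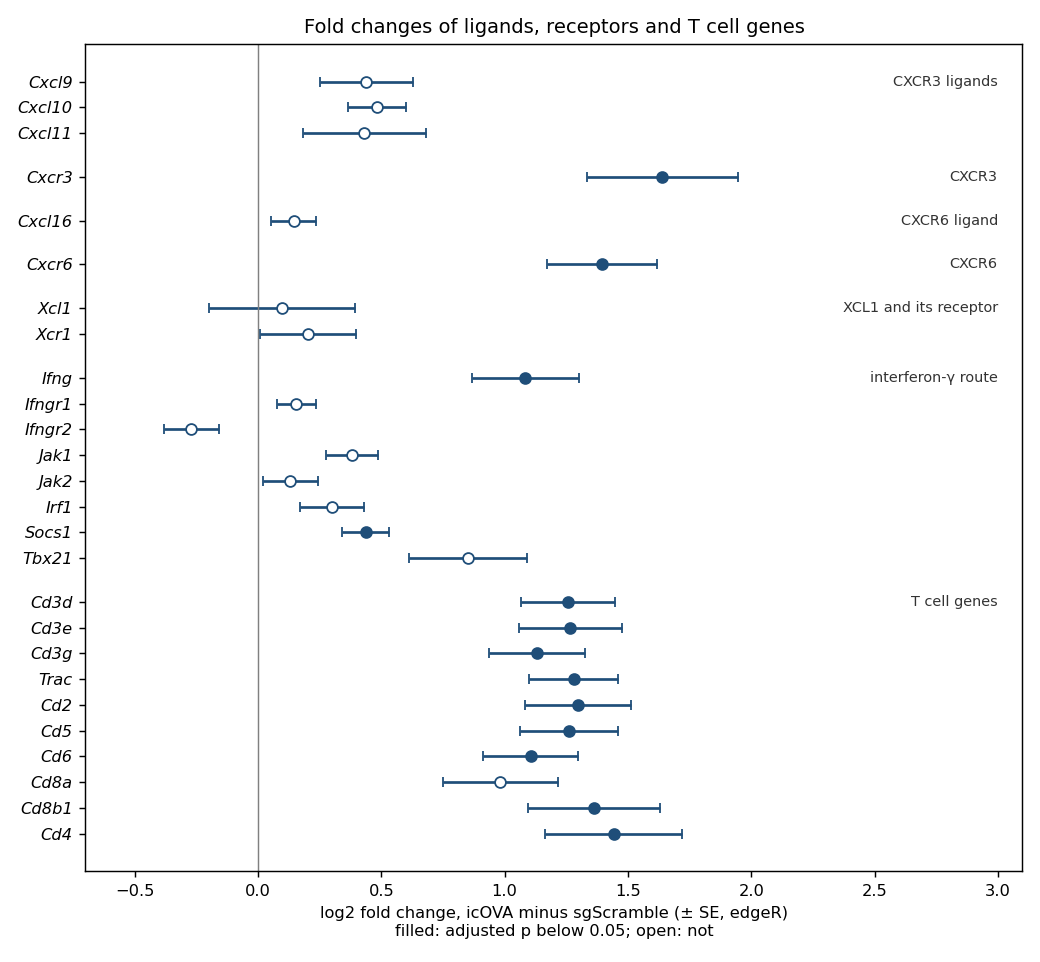
The plot gives the log2 fold change between icOVA and sgScramble tumors (horizontal axis, ± SE from edgeR) for the ligand and receptor genes, the genes of the interferon-γ route and the T cell genes, with filled points for an adjusted p below 0.05. Cxcr3 and Cxcr6 lie at 1.64 and 1.39, beside T cell genes at 0.98 to 1.44, and the ligand genes lie between 0.10 and 0.48.

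Ligand was then set against receptor within each tumor, as the difference of their log2 CPM, which hardly depends on the scaling of the library and is compared between tumors, not between genes. Cxcr3 relative to Cxcl9 was -7.14, -7.42 and -7.62 in the sgScramble tumors, taken as 1, 4 and 5, against -6.40, -6.12, -7.02 and -5.48 in the icOVA tumors, taken as 2, 15, 16 and 18. The ratio was higher by 1.14 on the log2 scale, or 2.20-fold, with every icOVA tumor above every sgScramble tumor (p = 0.0571 by an exact permutation test, two-sided by doubling, which for groups of 3 and 4 reaches no smaller value; adjusted p = 0.129 over the 9 ratios). Relative to Cxcl10 the difference was 1.11, with the same p and with no overlap of the groups.

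Cxcr6 relative to Cxcl16 was -3.83, -3.34 and -3.76 in the sgScramble tumors and -2.81, -1.97, -2.71 and -2.07 in the icOVA tumors. The groups were apart by 1.25 on the log2 scale, or 2.38-fold (exact permutation test, p = 0.0571, adjusted p = 0.129). Xcr1 relative to Xcl1 differed by 0.10 with overlapping groups (exact permutation test, p = 0.800). The log2 ratio of Cxcr6 to Cxcr3 was 2.14 ± 0.291 (SD, n = 3) and 1.95 ± 0.256 (SD, n = 4) in the 2 groups, with no difference detected (exact permutation test, p = 0.457). None of these ratios passed after adjustment, which the number of tumors does not allow.

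**Figure D3:**
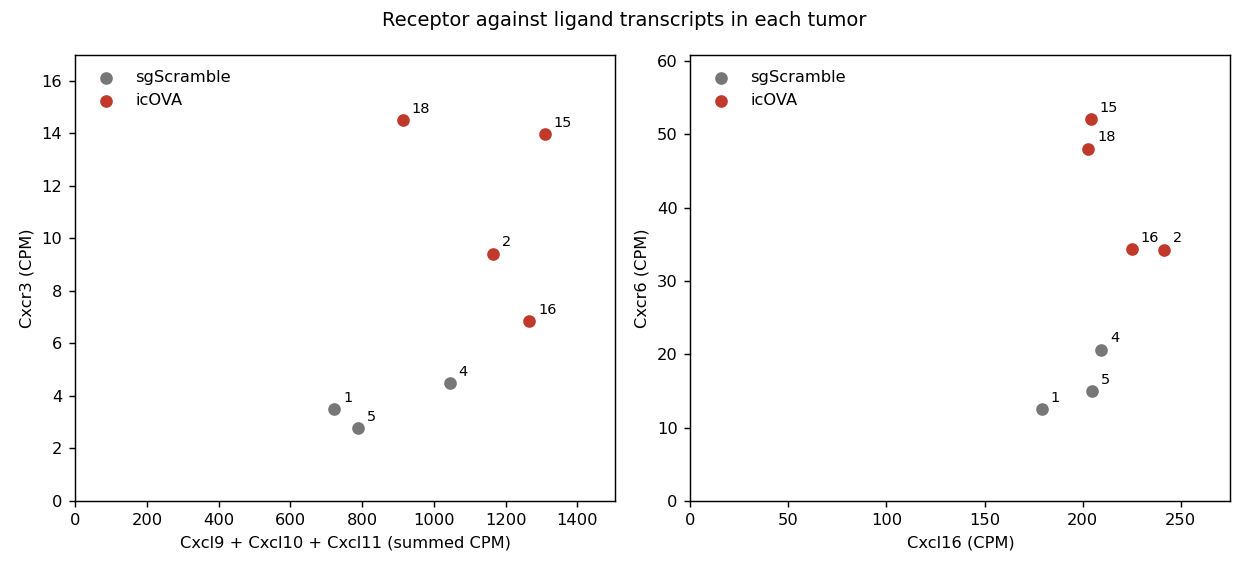
Each point is a tumor, with its number, at its ligand CPM (horizontal axis: Cxcl9, Cxcl10 and Cxcl11 summed on the left, Cxcl16 on the right) and its receptor CPM (vertical axis: Cxcr3 on the left, Cxcr6 on the right), all axes starting at 0. The icOVA tumors are separated from the sgScramble tumors by receptor, and not by the summed CXCR3 ligands or Cxcl16, although Cxcl10 alone separates them. The icOVA tumor 18 pairs the lowest ligand sum of its group (913 CPM) with the highest Cxcr3 (14.5 CPM).

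The tumors of the icOVA group were not ordered alike by ligands and receptors. Summed over the 3 genes, the CXCR3 ligands were 1309 CPM in tumor 15, 1266 in tumor 16, 1165 in tumor 2 and 913 in tumor 18, and sgScramble tumor 4, at 1044 CPM, was above the last of these. Tumor 16, with the second highest ligand sum, had the lowest Cxcr3. Ifng, the gene of the cytokine that induces these ligands, was also lowest of its group in tumor 18, at 15.2 CPM against 22.1 to 28.0 CPM in the other icOVA tumors and 8.70 to 11.7 CPM in the sgScramble tumors. Tumor 18 also had the least of the cancer cell genes, with Krt19 at 364 CPM against 671 to 822 CPM and Cdh1 at 364 CPM against 753 to 949 CPM in the other icOVA tumors. The part of this makeup in its ligand levels was not tested.

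Over the 7 tumors, the genes whose log2 CPM followed that of Cxcr6 most closely among 14116 genes with a mean count of at least 50 were Cd6, Cd5 and Fyb (Pearson r = 0.999, 0.998 and 0.998). For Cxcr3 they were Gimap8, Cd48 and F2rl2 (r = 0.998, 0.997 and 0.997). CD5 and CD6 are surface receptors of T cells, Fyb encodes an adaptor of T cell receptor signaling, and CD48 is carried by most leukocytes. For Cxcl9 they were Gm18853, Slc31a1 and Vcp-rs (r = 0.995, 0.988 and 0.984), and for Cxcl16 Zfp207, Ppp1r11 and Psma2 (r = 0.978, 0.968 and 0.959). Between members, r was 0.97 for Cxcr3 with Cxcr6, 0.89 for Cxcl9 with Cxcl10, 0.72 for Cxcl9 with Cxcl11, 0.62 for Cxcr3 with Cxcl9 and 0.48 for Cxcr6 with Cxcl16. These correlations describe 7 tumors in 2 groups, share the libraries and their scaling, and include the difference between the groups.

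T cell genes moved with the receptors. Of Cd3d, Cd3e, Cd3g, Trac, Cd2, Cd5, Cd6, Cd8a, Cd8b1 and Cd4, 9 of 10 rose and Cd8a had a log2 fold change of 0.98 (edgeR adjusted p = 0.0505). Their median log2 fold change was 1.26, against -0.0048 over all tested genes, and their summed CPM ran from 105 to 171 in sgScramble tumors and from 238 to 374 in icOVA tumors. Ptprc, the leukocyte antigen CD45, rose by 1.08 (SE 0.18, edgeR adjusted p = 0.0271). With libraries scaled to Ptprc in place of TMM, 0.4% of genes were called higher by edgeR, and the log2 fold changes of Cxcr3 and Cxcr6 were 0.54 and 0.30 and did not pass (adjusted p = 0.0876 and 0.211). On that scale 80.4% of all genes were called lower, and 4 members with them, Cxcl9, Cxcl10, Cxcl16 and Xcl1. In a whole tumor, more cells of a type and more RNA of a gene per cell cannot be told apart.

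Set against Cd3e, the receptor genes overlapped between the groups, and the test, which reaches no p below 0.0571 here, cannot show that they were unchanged. For Cxcr3, 2 of the 4 icOVA tumors were above every sgScramble tumor. For Cxcr6, 3 were above and 1 was below every sgScramble tumor. The log2 ratio of Cxcr3 to Cd3e was -1.39, -1.68 and -2.05 in the sgScramble tumors and -1.55, -1.33, -1.63 and -1.02 in the icOVA tumors, a difference of 0.32 (exact permutation test, p = 0.229, adjusted p = 0.411). That of Cxcr6 to Cd3e was 0.44, 0.50 and 0.36 against 0.31, 0.56, 0.69 and 0.71, a difference of 0.13 (exact permutation test, p = 0.286, adjusted p = 0.429). The log2 ratio of Xcl1 to Cd3e was -1.56, -1.27 and -1.71 against -2.73, -2.81, -2.74 and -2.35. Every icOVA tumor was below every sgScramble tumor, and Xcl1 per Cd3e was 0.45 times its sgScramble level, lower by 1.14 on the log2 scale (exact permutation test, p = 0.0571, adjusted p = 0.129).

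NK cells also carry CXCR3 and make XCL1. Of Ncr1, Klrb1c, Klre1, Klri2 and Eomes, 1 of 5 rose, Eomes, a transcription factor that effector CD8+ T cells share, with a log2 fold change of 1.05 (edgeR adjusted p = 0.0482). That call was lost with limma-voom (adjusted p = 0.0686), with total counts (adjusted p = 0.0504) and without a filter on low counts (adjusted p = 0.0532), which left 0 of the 5, and DESeq2 called 2. Ncr1, the most NK-restricted of them, had 3.94, 3.68 and 2.53 CPM against 3.89, 5.54, 1.89 and 8.31 CPM, with tumor 18 highest and tumor 16 lowest (log2 fold change 0.54, SE 0.45, edgeR adjusted p = 0.475). Xcl1 and Ncr1 were thus both highest in tumor 18 and lowest in tumor 16 of the icOVA group. This was not particular to NK cell genes, since Cxcr3, the endothelial gene Pecam1 and the fibroblast gene Dcn had the same extremes. Of the genes linked to tissue-resident T cells (Itgae, Itga1, Cd69, Zfp683, Rgs1 and Prdm1), which often carry CXCR6, 2 of 6 rose, Cd69 (0.83) and Rgs1 (0.73), both of which activated lymphocytes express widely, and Itgae, which encodes the CD103 chain, had a log2 fold change of 0.06 (edgeR adjusted p = 0.911).

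Among the genes of the interferon-γ route (Ifng, Ifngr1, Ifngr2, Jak1, Jak2, Irf1, Socs1 and Tbx21), 2 of 8 rose and none fell, with a median log2 fold change of 0.34. DESeq2 called 4 of the 8, while limma-voom did not call Ifng (adjusted p = 0.0513) and the edgeR fit without a filter on low counts did not call Socs1 (adjusted p = 0.0524). Ifng had 11.4, 11.7 and 8.70 CPM in sgScramble tumors and 24.5, 28.0, 22.1 and 15.2 CPM in icOVA tumors, with no overlap and a log2 fold change of 1.08 (SE 0.22, edgeR adjusted p = 0.0352). Socs1, a feedback inhibitor that the pathway induces, rose by 0.44 (edgeR adjusted p = 0.0425), a fold close to those of the CXCR3 ligands. Irf1, a transcription factor gene that interferon-γ induces, had a log2 fold change of 0.30 (edgeR adjusted p = 0.182). Tbx21, whose product T-bet drives Cxcr3 in T cells, was higher in all 4 icOVA tumors and did not pass (0.85, edgeR adjusted p = 0.0743).

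Of the partners of these axes, Xcr1, Ackr3, Adam10, Adam17, Dpp4 and Pf4, none of 6 passed in the edgeR test and 1 passed with DESeq2, and their median log2 fold change was 0.19. Adam10 and Adam17, the proteases that shed CXCL16, had log2 fold changes of -0.067 and 0.17. Ackr3, a scavenging receptor for CXCL11 and CXCL12, had one of -0.22 (edgeR adjusted p = 0.287). Dpp4, a peptidase of T cells that truncates CXCL10, was higher in every icOVA tumor, with a log2 fold change of 1.40 (edgeR adjusted p = 0.0624). At an unadjusted p below 0.05 in the edgeR test, Dpp4 was the 1 gene of these 6.

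**Figure D4:**
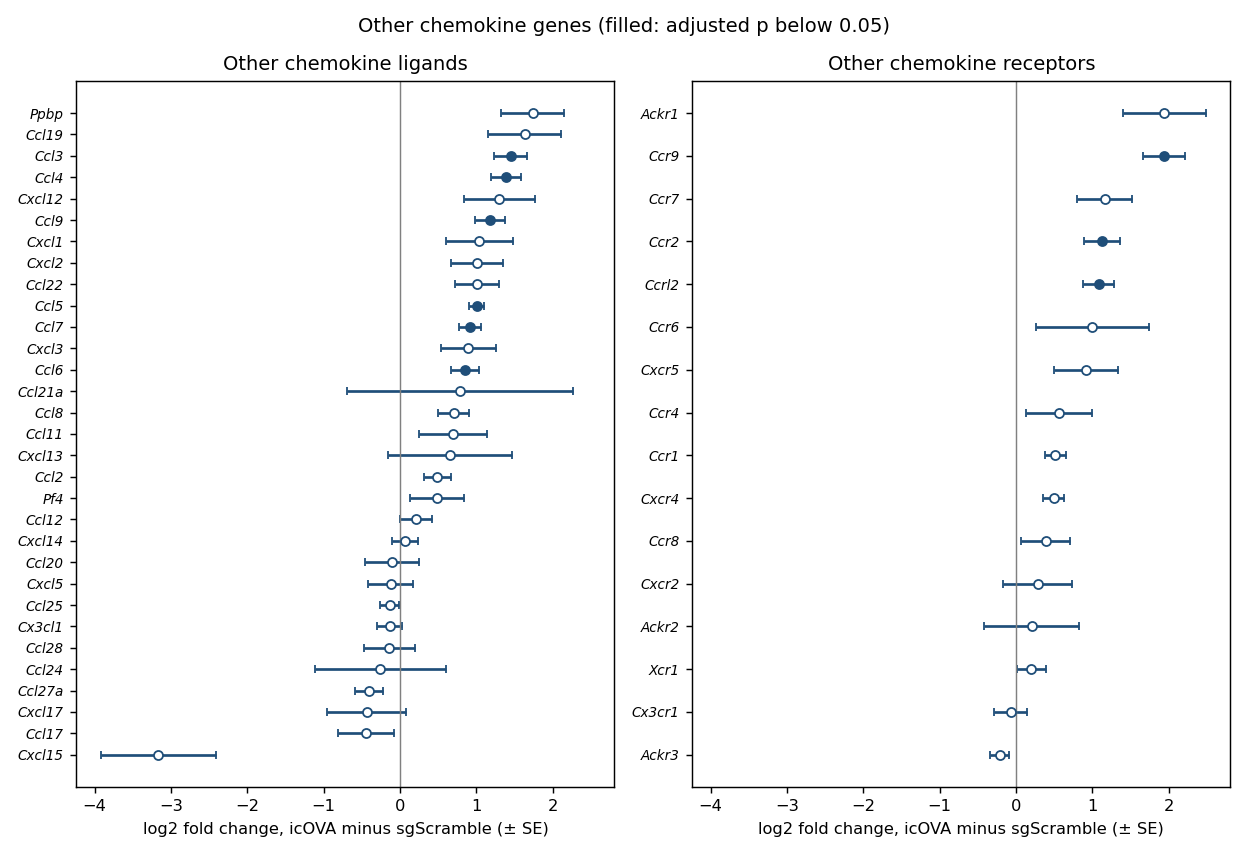
The log2 fold change between icOVA and sgScramble tumors (horizontal axis, ± SE from edgeR) is plotted for other chemokine ligand genes (left) and receptor genes (right), ordered by size, with filled points for an adjusted p below 0.05. The filled ligands are Ccl3, Ccl4, Ccl9, Ccl5, Ccl7 and Ccl6, all CC chemokines, and the filled receptors are Ccr9, Ccr2 and Ccrl2.

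Other chemokine genes show where the CXCR3 and CXCR6 ligands stood in their family. Of 31 other ligand genes tested, 6 rose and none fell, with a median log2 fold change of 0.69. The 6 were Ccl3 (1.45), Ccl4 (1.38), Ccl9 (1.18), Ccl5 (1.01), Ccl7 (0.92) and Ccl6 (0.85), and each of these log2 fold changes was larger than that of any member ligand, a difference that was not tested. Cxcl15, known as a neutrophil attractant of the lung, had the largest difference of the 31, from 4.41 to 9.88 CPM in sgScramble tumors to 0.12 to 1.52 CPM in icOVA tumors without overlap, and its log2 fold change of -3.17 just missed the threshold (edgeR adjusted p = 0.0505) and passed with DESeq2, limma-voom, total counts, upper quartile and Tbp scaling. DESeq2 called 11 of the 31 higher and 1 lower. CCL3, CCL4 and CCL5 are made by T cells, NK cells and macrophages. Of 16 other receptor genes tested, 3 rose and none fell, namely Ccr9 (1.94), Ccr2 (1.13) and Ccrl2 (1.08), with a median of 0.54, and DESeq2 called 7 higher. By size, Cxcr3 and Cxcr6 lay between Ccr9 and Ccr2 among the receptor genes called.

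Cells that can make the ligands were followed by their markers. Of 8 macrophage genes (Adgre1, Csf1r, Cd68, Mrc1, C1qa, C1qb, C1qc and Cd163), Cd68 rose (0.82) and the median log2 fold change was 0.58, with sums of 1040 to 1407 CPM in sgScramble and 1376 to 2128 CPM in icOVA tumors, and DESeq2 called 4 of the 8 higher. Of 6 genes of cross-presenting dendritic cells (Xcr1, Clec9a, Batf3, Irf8, Cadm1 and Wdfy4), Irf8 rose (0.79), a gene that other myeloid cells share, and Clec9a had a log2 fold change of 0.26 (edgeR adjusted p = 0.460). None of 5 endothelial genes (median 0.85, sums of 174 to 250 and 194 to 512 CPM) and none of 6 fibroblast genes (median 0.92, sums of 6663 to 15686 and 5607 to 36504 CPM) passed in the edgeR test, while DESeq2 called 3 of the endothelial and 0 of the fibroblast genes. Tumor 18 had the highest macrophage, endothelial and fibroblast sums of all 7 tumors. The part of these cells in the ligand levels was not tested.

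Lymphoid tissue taken with a tumor would also carry T cell genes. Of 8 genes of lymph nodes and naive lymphocytes (Ccl21a, Ccl19, Ccr7, Lef1, Cr2, Fcer2a, Glycam1 and Madcam1), 5 were tested, 0 passed in the edgeR test and 2 passed with DESeq2. Their median log2 fold change was 1.16, with Ccl19 (1.63), Ccr7 (1.16) and Lef1 (0.86) at an unadjusted p below 0.05, and the sums were 10.48 to 23.8 CPM in sgScramble and 15.7 to 58.0 CPM in icOVA tumors, highest in tumor 18. The B cell follicle genes Cr2 and Fcer2a had at most 6 counts in any tumor. Ccl21a is made by lymph node stroma and lymphatic vessels and is present in near-identical copies. It had 12, 375 and 11 counts in sgScramble tumors 1, 4 and 5. In icOVA tumors 2, 15, 16 and 18 it had 20, 52, 133 and 764 counts. Ccl21a was thus highest in the tumor of each group with most Xcl1 and most Cxcr3, while Cxcr6 was highest in tumors 4 and 15. Without tumor 4 or tumor 18, Cxcr3 kept log2 fold changes of 1.84 and 1.49 and Cxcr6 of 1.62 and 1.33, past the edgeR threshold. Each of these fits kept the other of these tumors, and no fit lacked tumors 4 and 18 together. The calls of Cxcr3 and Cxcr6 were lost without sgScramble tumor 1, sgScramble tumor 5, icOVA tumor 2 or icOVA tumor 15. Apart from tumors 4 and 18, every icOVA tumor had more Ccl21a counts than every sgScramble tumor. The part of lymphoid tissue in the rise of the receptors was not tested. Skeletal muscle genes summed to 1.44 to 57.3 CPM in sgScramble and 0.84 to 113 CPM in icOVA tumors. This was a wide range within each group, with sgScramble tumor 5 and icOVA tumor 2 lowest. Skin and adipocyte genes summed to at most 2.85 and 77.1 CPM in any tumor. None of the 4, 1 and 4 genes tested in the muscle, skin and adipocyte lists passed with edgeR, while DESeq2 called 1 adipocyte gene higher.

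**Figure D5:**
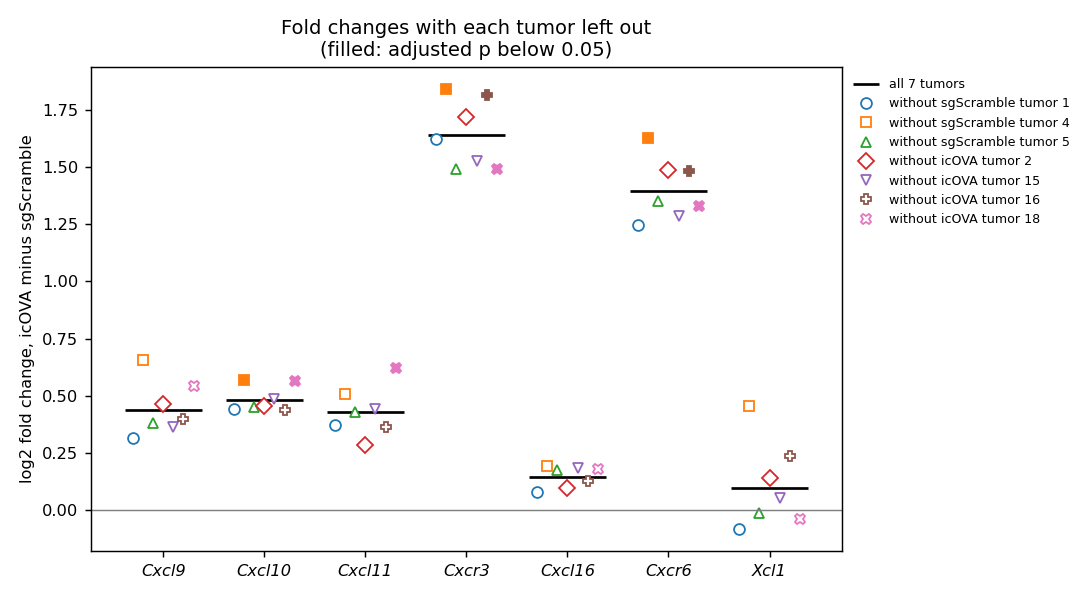
The log2 fold change of each member (vertical axis) is shown with all 7 tumors (black bar) and again without each single tumor (symbols, filled for an edgeR adjusted p below 0.05). The values of Cxcr3 and Cxcr6 stay between 1.25 and 1.84 in every fit, those of the CXCR3 ligands between 0.29 and 0.66, and those of Xcl1 fall on both sides of 0.

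The stretch of 250 bases before the start of transcription was read for the 5 members that RefSeq's promoters on GRCm38.p6 hold (Cxcl9, Cxcl10, Cxcr3, Cxcr6 and Xcl1), and 3 are printed, those of the abundant ligands Cxcl9 and Cxcl10, textbook targets of interferon and NF-κB signaling, and that of the receptor gene Cxcr6, which rose. The 3 patterns were searched on both strands, namely the interferon response core GAAANNGAAA, the NF-κB consensus and the T-box core TCACACC, and matches are in capitals. None of the matches overlap. The minus strand genes are given in their own direction, 5′ to 3′.
Cxcl9, chr5:92328080-92328329, minus strand: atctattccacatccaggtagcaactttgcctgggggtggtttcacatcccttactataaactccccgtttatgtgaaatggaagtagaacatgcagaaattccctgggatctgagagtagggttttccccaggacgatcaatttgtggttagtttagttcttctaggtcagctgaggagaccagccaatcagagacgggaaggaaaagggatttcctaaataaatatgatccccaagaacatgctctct
Cxcl10, chr5:92348890-92349139, minus strand: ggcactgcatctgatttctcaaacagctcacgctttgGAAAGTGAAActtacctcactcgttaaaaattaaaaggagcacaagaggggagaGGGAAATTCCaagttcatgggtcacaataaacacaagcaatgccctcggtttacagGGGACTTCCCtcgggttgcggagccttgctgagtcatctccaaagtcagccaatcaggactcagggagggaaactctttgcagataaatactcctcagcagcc
Cxcr6, chr9:123806227-123806476, plus strand: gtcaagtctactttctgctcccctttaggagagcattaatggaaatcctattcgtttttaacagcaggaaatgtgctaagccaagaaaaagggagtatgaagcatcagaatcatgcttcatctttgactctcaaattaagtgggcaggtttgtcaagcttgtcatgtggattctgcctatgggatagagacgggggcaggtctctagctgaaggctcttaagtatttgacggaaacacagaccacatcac

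The Cxcl10 window held an interferon response core starting 213 bases before the start, a pattern found in 2.98% of 32851 such windows, and NF-κB consensus matches starting 159 and 103 bases before it, a pattern found in 3.90% of windows. The windows of Cxcl9, Cxcr3 and Cxcr6 held none of the 3 patterns, and that of Xcl1, which is not printed, held the T-box core, as 3.33% of windows do. A match is a description of letters. Its absence says nothing of sites outside these windows, or of sites inside them that differ from the 3 patterns.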

How the data were processed

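The authors deposited raw counts per gene, whole numbers without normalization, for 7 libraries. The study's methods describe Illumina TruSeq Stranded Total RNA libraries and single reads of 76 bases, while the labels give polyA RNA. The submitters' processing notes name mm10. The aligner, counting tool, strand setting and filters are not given in the sources used here. Symbols, coordinates and exon lengths are from GENCODE M21 (GRCm38, the assembly of mm10), in which 22414 rows have a symbol. Counts were filtered by filterByExpr (minimum count 10, minimum total 15), scaled by TMM and compared with edgeR 4.0.16 in R 4.3.3, without covariates, icOVA against sgScramble. SE is the log2 fold change divided by the square root of F. A prior count of 2 was used for log2 CPM. Ratios were compared with exact permutation tests (scipy 1.17.1). The edgeR script was tested on simulated data. P values measure the spread between these tumors.

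The members and gene lists were chosen with earlier results of these data known. Named genes are the members, OVA, Ptprc, Ifng, Irf1, Xcr1, Cd3e, Cd8a, Cd4, Ncr1, called genes of the lists, genes overlapping a member and the 3 genes most correlated with Cxcl9, Cxcr3, Cxcr6 and Cxcl16. Other genes named were chosen after their values were seen, and some genes are not reported here. Alternatives were DESeq2 1.42.0, limma-voom (limma 3.58.1), total counts, upper quartile, other filters, a robust fit, scaling to Ptprc or Tbp, prior counts of 0.5 and 5, and leaving out each tumor.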

Additional observations from a re-analysis of the deposited data

Results flagged for a closer look

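In the 4 icOVA tumors, the log2 CPM of Ccrl2, a receptor gene of myeloid and endothelial cells, was 4.66, 4.74 and 4.73 in tumors 15, 16 and 2 and 4.04 in tumor 18, a gap of 0.882 of the range. The gap exceeds the critical value of Dixon's test for 4 samples, which chance exceeds in about 1 of 20 groups, or 2.35 of the 47 values examined. None of the 7 chemokine and receptor members had such a gap.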

How the results depend on the processing

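No paired analysis was made because the labels name no pairs. The legend of the paper's heat map calls the compared groups paired, and tumor numbers that each occur once cannot show which tumors that would join. Of 56 values of the members with all tumors and edgeR, DESeq2 or limma-voom on library-wide scaling or Tbp, 52 kept direction and side of the threshold and 4, all of Cxcl10, newly passed it. All genes called higher and lower were 1558 and 1278 with DESeq2, against 588 and 444, and 199 were lower when scaled to Tbp. Scaled to Ptprc, the median of all genes was -1.10, 70 genes were called higher and 14053 lower, and edgeR called 0 members higher and 4 lower, Cxcl9, Cxcl10, Cxcl16 and Xcl1 (adjusted p = 0.0315, 0.0389, 0.00246 and 0.00614). Relative to Ptprc the log2 fold change was 0.54 for Cxcr3 (adjusted p = 0.0876) and 0.30 for Cxcr6 (adjusted p = 0.211), and turned to -0.62 for Cxcl9, -0.58 for Cxcl10, -0.62 for Cxcl11, -0.93 for Cxcl16, -0.96 for Xcl1, -0.78 for Irf1, -0.87 for Xcr1, -0.088 for Cd8a, -0.59 for Ncr1, -0.64 for Socs1, -0.066 for Ccl5, -0.28 for Ccl6, -0.15 for Ccl7, -0.073 for Eomes, -0.24 for Cd69, -0.36 for Rgs1, -0.30 for Irf8 and -0.28 for Cd68. These shifts follow from the rise of Ptprc itself. With each tumor left out, the members called higher ran from 0 to 4, all genes called higher from 0 to 1014 and lower from 0 to 716. For the members, the 0 came from the fits that lacked sgScramble tumor 1, sgScramble tumor 5, icOVA tumor 2 or icOVA tumor 15. The fit without sgScramble tumor 4 called 3 members higher, and that without icOVA tumor 18 called 4. Of all genes, the fit without icOVA tumor 2 called 6 higher and 2 lower. Xcl1 ran from -0.081 to 0.45 and was below 0 in the fits lacking sgScramble tumor 1 (-0.081), sgScramble tumor 5 (-0.011) or icOVA tumor 18 (-0.039). Of the 9 ratios, 7 kept their direction throughout, Xcr1 to Xcl1 ran from -0.067 to 0.24 and turned without sgScramble tumor 4 (-0.032) or icOVA tumor 16 (-0.067), and Cxcl9 to Cxcl10 ran from -0.12 to 0.082 and turned without sgScramble tumor 4 (0.082) or icOVA tumor 2 (0.020). The cause was not tested. Cxcr3 and Xcl1, with 87 to 517 and 107 to 199 counts per tumor, are the members with the lowest mean counts and the largest SE (0.31 and 0.29).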
